A study of Homo sapiens with 12 samples.

Results

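The genes described here are the AP-1 subunits FOS, FOSL1, JUN, JUNB and JUND together with the immediate early genes EGR1, KLF6 and DUSP1. They were chosen by transcript identifier from a list of 9 genes. The list's remaining gene, IER2, had no row under either of its 2 identifiers and was not analysed here. The 8 genes are 8 of the 19686 transcripts in the RNA table and of the 19849 in the footprint table, and all 8 had enough counts to be tested in both assays.

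RKO is a human colon cancer cell line, labelled here as epithelial and of WT genotype. The cells were plated in full medium and then moved to arginine-free DMEM with dialyzed serum, to which arginine was added back at 400 uM (fed) or 12.5 uM (starved) for 24 hours. RNA-seq, which measures transcript levels, and ribosome profiling, which sequences the mRNA fragments shielded by ribosomes (footprints), were run on 3 libraries per group, 12 in all. The groups share the cell line, the basal medium and the serum and differ in arginine. Whether the replicates were grown as separate cultures is not said in the labels, and the p-values below rest on library-to-library spread alone, and that spread may be technical. These are bulk samples of 1 line, so more cells expressing a gene and more RNA per cell cannot be told apart.

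Immediate early genes are transcribed within minutes of growth factor or stress signals without new protein synthesis, mainly through MAP kinases acting on the serum response factor and on proteins bound at cAMP response elements. Several encode AP-1, a dimer of basic leucine zipper proteins: Jun proteins can pair with each other or with Fos proteins, whereas Fos proteins need a Jun partner to bind DNA. Other products act further along or feed back: EGR1 and KLF6 are zinc finger transcription factors, and DUSP1 is a phosphatase that switches off MAP kinases. Their transcripts are mostly short-lived, and their levels usually return towards baseline after a brief stimulus.

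Promoter sequences were available from RefSeq (build GRCh38.p14) for 7 of the 8 genes, all but FOSL1, and the 250 bases before the annotated start are shown for 5 of them because they carry matches to known response elements of this gene class. Capitals mark a match to TGACATCA (the AP-1-like sequence known from the JUN promoter), to TGACGTCA (the cAMP response element, CRE) or to the CArG box bound by serum response factor. The order is 5′ to 3′ on the gene's strand.
JUN, chr1:58784048-58784297, minus strand: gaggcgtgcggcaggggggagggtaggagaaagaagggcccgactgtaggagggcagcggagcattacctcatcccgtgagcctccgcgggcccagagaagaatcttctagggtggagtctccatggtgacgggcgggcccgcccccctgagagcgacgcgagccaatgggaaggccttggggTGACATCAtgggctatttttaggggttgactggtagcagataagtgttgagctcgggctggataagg
KLF6, chr10:3785210-3785459, minus strand: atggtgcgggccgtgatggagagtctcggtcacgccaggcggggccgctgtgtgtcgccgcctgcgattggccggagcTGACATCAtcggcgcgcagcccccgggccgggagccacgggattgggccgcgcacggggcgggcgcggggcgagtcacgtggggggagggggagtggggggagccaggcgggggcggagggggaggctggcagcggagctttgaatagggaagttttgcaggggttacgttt
DUSP1, chr5:172771196-172771445, minus strand: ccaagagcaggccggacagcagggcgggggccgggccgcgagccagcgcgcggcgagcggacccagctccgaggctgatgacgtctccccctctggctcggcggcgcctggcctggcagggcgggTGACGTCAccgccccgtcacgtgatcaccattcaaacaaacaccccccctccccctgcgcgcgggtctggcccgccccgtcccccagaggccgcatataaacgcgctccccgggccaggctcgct
JUND, chr19:18281623-18281872, minus strand: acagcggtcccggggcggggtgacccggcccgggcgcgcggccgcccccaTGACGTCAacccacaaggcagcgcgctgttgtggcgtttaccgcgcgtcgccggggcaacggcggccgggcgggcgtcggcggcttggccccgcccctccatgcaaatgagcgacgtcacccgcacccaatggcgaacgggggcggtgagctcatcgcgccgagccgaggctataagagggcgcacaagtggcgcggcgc
EGR1, chr5:138465229-138465478, plus strand: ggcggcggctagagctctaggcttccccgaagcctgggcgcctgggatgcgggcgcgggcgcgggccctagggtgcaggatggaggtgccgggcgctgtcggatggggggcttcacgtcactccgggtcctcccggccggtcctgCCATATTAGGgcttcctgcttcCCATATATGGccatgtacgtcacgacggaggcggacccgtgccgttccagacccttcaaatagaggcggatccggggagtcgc

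JUN and KLF6 each held 1 TGACATCA, beginning 67 and 172 bases before the start. Of 35116 promoter windows of the same length, 2.37% held this sequence on either strand. DUSP1 and JUND each held 1 TGACGTCA, 125 and 200 bases before the start, a sequence found in 1.65% of windows. EGR1 held 2 CArG boxes, CCATATTAGG and CCATATATGG, 105 and 83 bases before the start, and 1.16% of windows held any. The half-site TGACG, which lies inside the full CRE, was present in FOS, JUN, JUNB, JUND, EGR1 and DUSP1 and in 21.2% of windows. The AP-1 consensus TGANTCA was found in none of the 7 windows (6.57% of all) and the amino acid response core TGATGNAA in none (3.14% of all). Both strands were searched for each motif. Sequence further than 250 bases before the start was not searched, so a motif not found here may lie upstream of the window. A match describes the letters only, and no binding was measured here.

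Arginine starvation went with higher RNA of nearly all of these genes. Changes were tested with edgeR (quasi-likelihood, Benjamini-Hochberg adjusted over all transcripts), and called means an adjusted p under 0.05. Of the 8 RNAs, 7 were called higher and 0 lower, JUND being the one not called. Of all 11572 transcripts tested, 33.8% were called higher and 34.1% lower. The median log2 fold change, always starved over fed, was 0.76 for the 8 genes and −0.01 for all transcripts tested. Footprints were called higher for 4 of the 8, JUN, EGR1, DUSP1 and KLF6, against 18.9% of 13457 transcripts. The median footprint log2 fold change of all 8 was 0.60, beside 0.05 for all transcripts tested. JUN, EGR1, DUSP1 and KLF6 were thus called higher in both assays, as were 13.7% of the 11027 transcripts tested in both.

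**Figure D1:**
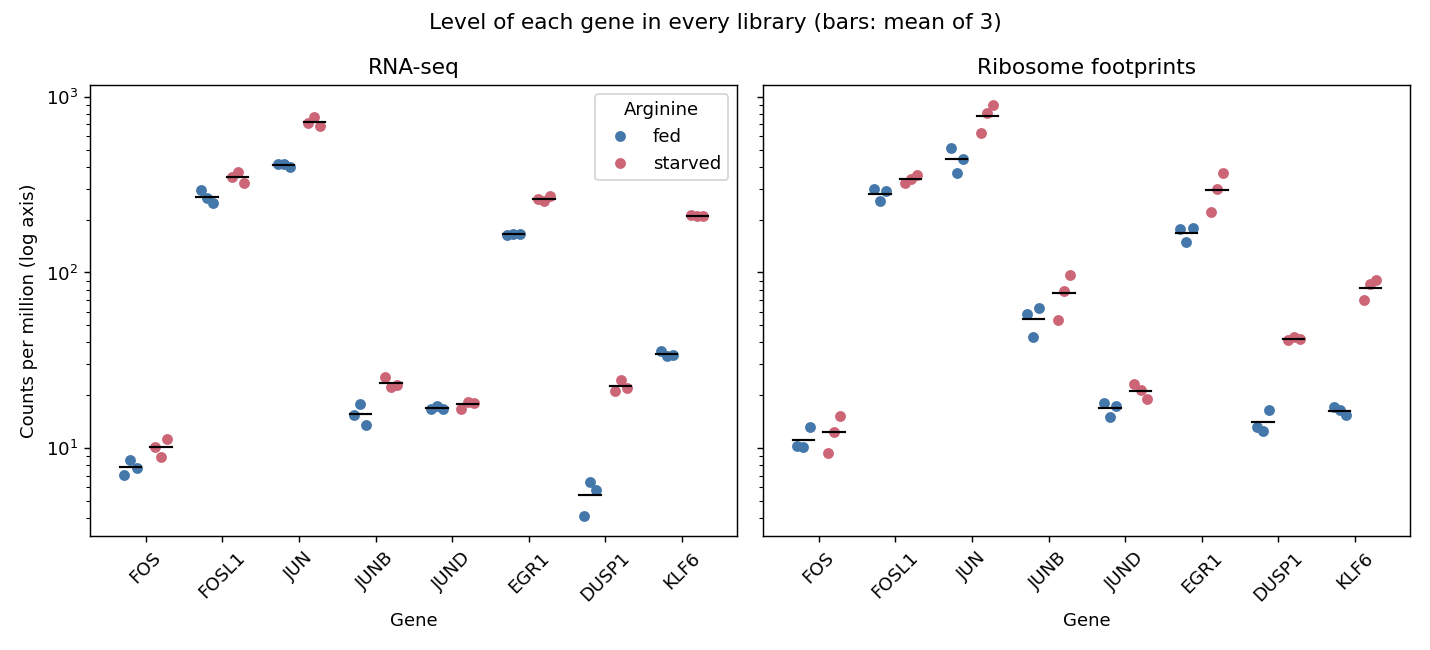
Counts scaled to library size (CPM, log axis) of each gene in every RNA-seq (left) and footprint (right) library, with fed libraries in blue, starved in red and the mean of 3 as a bar. KLF6 and DUSP1 show the widest gap between fed and starved libraries in both assays, and JUND RNA shows overlapping groups at this scaling.

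The 2 genes outside the AP-1 and EGR families rose most. KLF6 (ENST00000497571), a Krüppel-like factor, had RNA levels of 35.6, 33.6 and 34.2 CPM in fed replicates 1 to 3 and 213, 210 and 208 CPM in starved replicates 1 to 3. CPM here are counts divided by the library total and multiplied by 1000000. All starved libraries lay far above all fed ones, and the spread within each group was small (SD 1.05 CPM in fed and 2.52 in starved, n = 3). The fitted change was 6.57-fold (log2 fold change 2.72, SE 0.08, edgeR adjusted p = 9.11e-40). Only 52 of the 11572 transcripts tested (0.449%) had a larger RNA log2 fold change.

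KLF6 footprints rose as well. They were at 17.2, 16.5 and 15.6 CPM in fed and 70.2, 85.9 and 90.2 CPM in starved replicates 1 to 3, again without overlap. The fitted change was 4.82-fold (log2 fold change 2.27, SE 0.16, edgeR adjusted p = 8.25e-07), and 0.476% of the footprint comparison's transcripts had a larger one. Fed libraries held 33 to 75 KLF6 footprints each and starved libraries 164 to 330.

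DUSP1 (ENST00000239223), the MAP kinase phosphatase, was scarce in fed RNA, at 4.14, 6.42 and 5.77 CPM (30 to 40 counts per library). Starved RNA libraries held 21.2, 24.6 and 22.1 CPM (150 to 155 counts). Every starved library was more than 3 times as high as any fed one by these values. The fitted RNA change was 4.60-fold (log2 fold change 2.20, SE 0.16, edgeR adjusted p = 2.82e-19), with 0.830% of transcripts changing more in this direction.

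DUSP1 footprints were at 13.3, 12.6 and 16.5 CPM in fed and 41.1, 43.1 and 42.1 CPM in starved replicates 1 to 3. The starved libraries were close together (SD 1.04 CPM, n = 3) and all above the fed ones. Footprints changed 2.91-fold (log2 fold change 1.54, SE 0.16, edgeR adjusted p = 1.53e-05). DUSP1 and KLF6 were the only 2 of the 8 genes with called changes of more than 2-fold, in RNA and in footprints alike. Called rises of that size were found in 6.78% of transcripts for RNA and 6.49% for footprints.

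In the Jun family, JUN and JUNB RNA rose and JUND RNA was not called. JUN (ENST00000371222), the main transactivating Jun protein, had RNA at 414, 413 and 396 CPM in fed and 708, 763 and 683 CPM in starved replicates 1 to 3. The groups were well separated. Its RNA changed 1.90-fold (log2 fold change 0.93, SE 0.07, edgeR adjusted p = 1.68e-18). JUN footprints were at 511, 366 and 442 CPM in fed and 620, 812 and 890 CPM in starved libraries, higher in each starved library than in any fed one though with a wider spread than RNA. They changed 1.70-fold (log2 fold change 0.77, SE 0.15, edgeR adjusted p = 0.00172).

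JUNB (ENST00000302754), a Jun protein with weaker transactivation that can restrain JUN, had RNA at 15.6, 17.8 and 13.6 CPM in fed and 25.4, 22.5 and 23.0 CPM in starved libraries. Its RNA changed 1.66-fold without overlap between groups (log2 fold change 0.73, SE 0.13, edgeR adjusted p = 1.29e-06). JUNB footprints were at 58.0, 43.1 and 62.8 CPM in fed and 53.5, 78.9 and 97.0 CPM in starved replicates 1 to 3. Starved replicate 1 lay inside the fed range, and the change was not called (log2 fold change 0.44, SE 0.20, 95% interval −0.0026 to 0.89, edgeR adjusted p = 0.104). Without starved footprint replicate 1, the lowest of the starved libraries for this gene, the change was 0.61 and was called (edgeR adjusted p = 0.0100). Without starved footprint replicate 3, the highest, it was 0.24 and was not called.

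JUND (ENST00000252818), the Jun protein usually found in unstimulated cells, had RNA at 16.8, 17.3 and 16.7 CPM in fed and 16.8, 18.4 and 18.1 CPM in starved libraries. In these CPM from library totals the groups overlapped, through starved replicate 1. The overlap depends on the scaling. With the TMM scaling factors of the fit (1.04 in fed, 0.955 in starved replicate 1) the starved libraries lay above the fed ones. The log2 fold change was 0.18 (SE 0.13, 95% interval −0.08 to 0.44, edgeR adjusted p = 0.213), an interval whose upper end lies below the lower end for JUNB (0.47) and for JUN (0.79). JUND footprints were at 18.1, 15.0 and 17.5 CPM in fed and 23.1, 21.6 and 19.1 CPM in starved libraries. The starved libraries lay above the fed ones, on 31 to 79 footprints per library, and the change was not called (log2 fold change 0.26, SE 0.17, 95% interval −0.11 to 0.64, edgeR adjusted p = 0.238). When a smooth trend with abundance was taken out of each library, JUND RNA was called higher, by 0.30 (edgeR adjusted p = 0.0368). No other setting called it, and with library totals alone the change was 0.07 (edgeR adjusted p = 0.647).

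Both Fos family RNAs rose, and neither gene was called in footprints. FOS (ENST00000303562), the classical immediate early AP-1 subunit, was scarce, with RNA at 7.03, 8.56 and 7.78 CPM in fed and 10.2, 8.89 and 11.4 CPM in starved libraries (40 to 77 counts). The closest pair, fed replicate 2 and starved replicate 2, differed little. The RNA change was 1.43-fold (log2 fold change 0.52, SE 0.17, edgeR adjusted p = 0.00633). Without starved RNA replicate 3 it was 0.43 and missed the threshold (edgeR adjusted p = 0.0502).

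FOS footprints were at 10.3, 10.2 and 13.2 CPM in fed and 9.41, 12.4 and 15.3 CPM in starved replicates 1 to 3. The groups overlapped, with 1 starved library below all fed ones, 1 inside their range and 1 above, on 21 to 56 footprints per library. The log2 fold change was 0.14 (SE 0.23, 95% interval −0.37 to 0.65, edgeR adjusted p = 0.663), and its sign turned without starved footprint replicate 3 (−0.051).

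FOSL1 (FRA1, ENST00000312562), a Fos protein that lacks the strong transactivation domain of FOS and is often abundant in carcinoma cells, had RNA at 294, 264 and 248 CPM in fed and 347, 371 and 324 CPM in starved libraries. The lowest starved library stood above the highest fed one. The RNA change was 1.39-fold (log2 fold change 0.48, SE 0.07, edgeR adjusted p = 1.74e-08). FOSL1 footprints were at 298, 253 and 291 CPM in fed and 322, 341 and 357 CPM in starved libraries. They did not overlap, but the change was not called (log2 fold change 0.23, SE 0.11, 95% interval −0.02 to 0.47, edgeR adjusted p = 0.128). It was called with the abundance trend removed (0.38, edgeR adjusted p = 0.0178) and in no other setting.

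EGR1 (ENST00000239938), a serum-responsive zinc finger factor, had the tightest fed RNA values of the 8 genes as a share of the mean (164, 165 and 166 CPM in fed replicates 1 to 3). Starved libraries held 262, 254 and 272 CPM. The gap far exceeded the spread within either group. EGR1 RNA changed 1.72-fold (log2 fold change 0.79, SE 0.07, edgeR adjusted p = 5.35e-16). EGR1 footprints were at 177, 150 and 179 CPM in fed and 221, 297 and 366 CPM in starved replicates 1 to 3. The starved libraries differed widely among themselves (SD 72.4 CPM, n = 3) but all exceeded the fed ones. Footprints changed 1.69-fold (log2 fold change 0.76, SE 0.17, edgeR adjusted p = 0.00348).

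**Figure D2:**
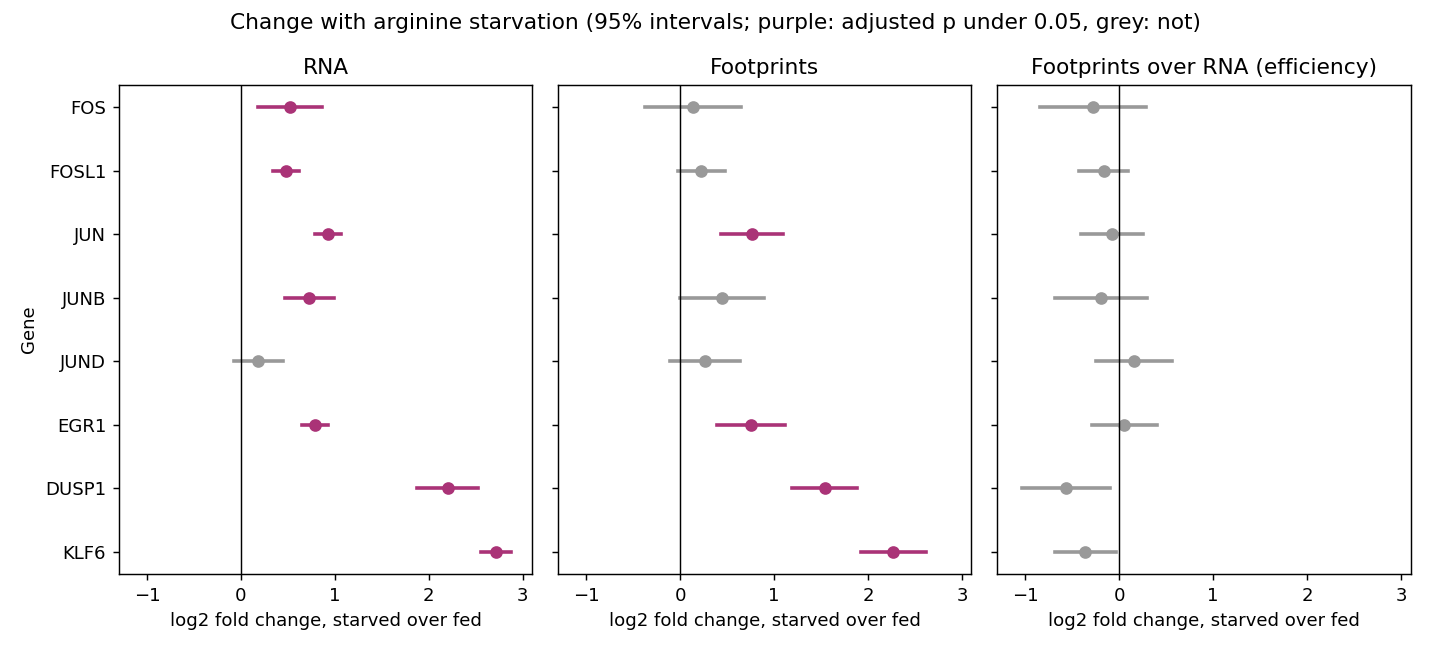
Log2 fold change (starved over fed) of each gene in RNA, footprints and footprints over RNA, with 95% intervals from the edgeR fit. Purple marks genes called at an adjusted p under 0.05 and grey those not called: 7 in RNA, 4 in footprints and 0 in footprints over RNA.

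In order of fitted RNA change the genes ran KLF6, DUSP1, JUN, EGR1, JUNB, FOS, FOSL1 and JUND. The 95% interval of KLF6 (2.56 to 2.88) began just above the end of that of DUSP1 (1.88 to 2.53), which in turn began above the end of JUN (1.07). From JUN to JUND each gene's interval overlapped its neighbour's, and the order among them changed with the processing. With the abundance trend removed JUNB (0.83) stood above JUN (0.80) and FOS (0.71) above EGR1 (0.60), and without starved RNA replicate 3 FOS (0.43) fell below FOSL1 (0.52). Added together, RNA of the 8 genes made up 888 to 951 CPM in fed and 1562 to 1672 CPM in starved libraries. Their footprints made up 867 to 1103 CPM in fed and 1360 to 1876 CPM in starved libraries. JUN and FOSL1 supplied most of these counts. In CPM from library totals, starved libraries lay above fed ones for 7 of the 8 genes in RNA (28.6% of transcripts tested) and for 6 of the 8 in footprints (26.6%).

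All 8 RNA changes stayed above 0 with each scaling tried. Library totals alone lowered the median of all transcripts from −0.01 to −0.12 in RNA, so small changes are relative to the scaling. With library totals alone the same numbers of genes were called as with the main scaling, 7 in RNA and 4 in footprints.

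**Figure D3:**
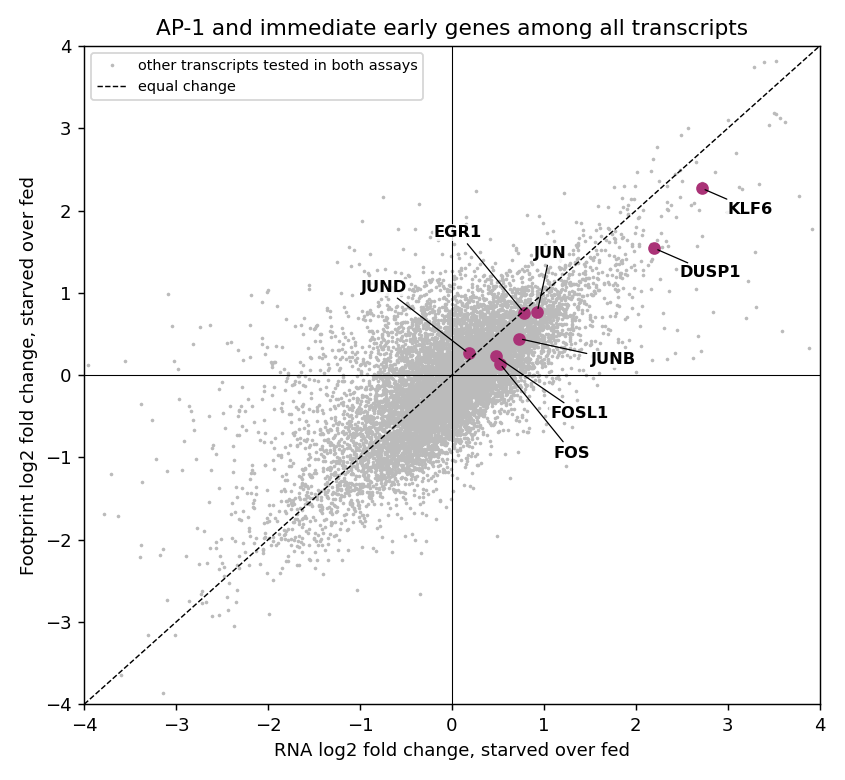
RNA (x axis) against footprint (y axis) log2 fold change, starved over fed, for 11027 transcripts tested in both assays, with the 8 genes in purple and the line of equal change dashed; 29 transcripts lie outside the axes. KLF6 and DUSP1 stand at the upper right, below the line, and the other 6 genes lie between 0 and 1 on both axes.

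Ribosome occupancy relative to RNA, the translational efficiency, was tested as an assay-by-treatment interaction with all 12 libraries fitted together. None of the 8 genes passed the adjusted threshold with edgeR, DESeq2 or limma-voom. Of the 11027 transcripts, edgeR called 22.8%, and with so few genes 0 of 8 is not set apart from that share. At an unadjusted p under 0.05 each of the 3 tools found 2 of the 8 genes, DUSP1 and KLF6. Of all transcripts, 35.3% passed this threshold with edgeR, 30.7% with DESeq2 and 35.1% with limma-voom, so 2 of 8 is no higher than the background. The DUSP1 value was −0.57 (SE 0.23, 95% interval −1.04 to −0.10, edgeR adjusted p = 0.0757). The KLF6 value was −0.36 (SE 0.15, 95% interval −0.68 to −0.04, edgeR adjusted p = 0.0992). DUSP1 was called lower with the abundance trend removed (−0.73, edgeR adjusted p = 0.0309) and with no filter on low counts (−0.67, edgeR adjusted p = 0.0479). Over all settings its adjusted p ran from 0.0309 to 0.240 and its value from −0.73 to −0.39.

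For the other 6 genes the efficiency values lay between −0.28 for FOS and 0.16 for JUND, with edgeR adjusted p from 0.363 to 0.850. Their intervals give a rough range for what could have been missed. The fit took 1 spread per transcript for both assays, although footprints varied more than RNA, so the intervals may be too narrow. The narrowest was that of FOSL1 (−0.43 to 0.10) and the widest that of FOS (−0.85 to 0.29). The values of JUN (−0.41 to 0.25), EGR1 (−0.29 to 0.40) and FOSL1 changed sign between settings. The footprint change was below the RNA change in 7 of the 8 genes when each assay was fitted by itself, all but JUND, and in 59.5% of all transcripts tested in both.

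Footprints per RNA differed between the genes in both conditions. The ratio of footprint CPM to RNA CPM was taken within same-numbered libraries. It cancels transcript length only if both assays were counted over the same stretch, which the sources used here do not state. In fed cells JUNB had the highest mean ratio, 3.59 ± 1.11 (SD, n = 3), with 3.72, 2.43 and 4.63 in replicates 1 to 3. DUSP1 followed at 2.68 ± 0.644, with 3.21, 1.96 and 2.87. These 2 overlapped each other, and 94.8% and 91.6% of all transcripts had a lower mean ratio in fed cells.

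FOS stood at 1.45 ± 0.255 in fed cells (SD, n = 3), below every DUSP1 value and overlapping JUN. JUN (1.08 ± 0.177), FOSL1 (1.05 ± 0.110), EGR1 (1.02 ± 0.101) and JUND (0.996 ± 0.113) did not differ beyond their spread (SD, n = 3). They lay close to the median of all transcripts, 0.883. KLF6 was lowest, at 0.476 ± 0.0179 (SD, n = 3), with 0.482, 0.490 and 0.456, below every value of the other 7 genes. Of all transcripts, 22.1% had a lower ratio than KLF6 in fed cells.

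**Figure D4:**
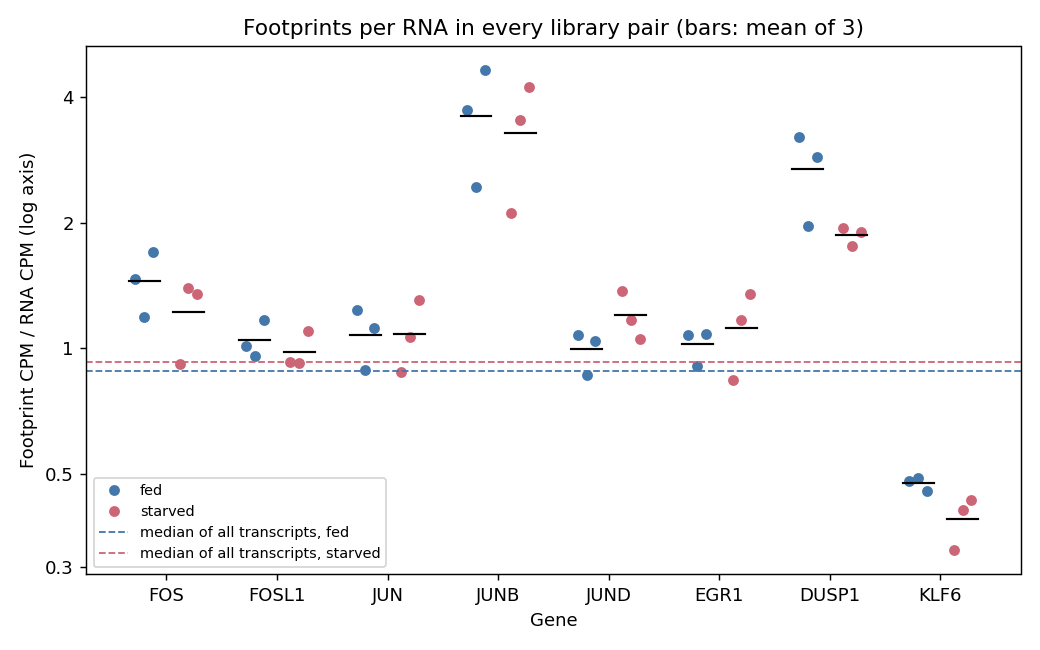
Footprint CPM over RNA CPM (log axis) of each gene in same-numbered fed (blue) and starved (red) libraries, with the mean of 3 as a bar and the median of all transcripts dashed (0.883 fed, 0.925 starved). JUNB and DUSP1 lie above the other genes in both groups and KLF6 below.

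In starved cells JUNB (3.28 ± 1.07) and DUSP1 (1.87 ± 0.0976) again had the highest mean ratios and KLF6 (0.391 ± 0.0546) the lowest (SD, n = 3). DUSP1 ratios were 1.94, 1.76 and 1.90 in starved replicates 1 to 3, just below the lowest fed value. KLF6 ratios were 0.329, 0.410 and 0.433, also below all fed values. Fed and starved ratios overlapped for the other 6 genes. In the same CPM from library totals, ratios without overlap and lower in starved cells were found for 15.0% of all transcripts. The overlap depends on the scaling. With TMM-scaled CPM, FOSL1 ratios did not overlap either, at 1.04 to 1.25 in fed and 0.876 to 1.02 in starved libraries. The share of all transcripts at that scaling was not counted. The same-numbered libraries are not known to be pairs. Over all 9 matchings per group, in CPM from library totals, DUSP1 ratios overlapped, reaching 2.04 in starved and falling to 1.96 in fed cells. KLF6 ratios still did not overlap, with at most 0.433 in starved and at least 0.437 in fed cells, as for 8.52% of all transcripts. The matchings were not repeated with TMM scaling. With that scaling, same-numbered DUSP1 ratios stood further apart, at 2.13 to 3.35 in fed and 1.73 to 1.83 in starved libraries.

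Footprint levels of these genes varied together between libraries of one group. In fed footprints 7 of the 8 genes, all but KLF6, were lowest in replicate 2, the library with the fewest footprints (2063952 counts). These ranks use CPM from library totals. FOS was nearly tied, at 90.6% of its fed mean in replicate 2 and 91.8% in replicate 1. Of all transcripts tested, 38.1% were lowest in fed replicate 2. Fed replicate 3 was almost as shallow (2118467 counts) and was lowest for KLF6 alone.

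In starved footprints 7 of the 8 genes, all but JUND, were lowest in replicate 1 (2337709 counts, the fewest of that group), as were 40.5% of all transcripts. FOS, JUN, JUNB, FOSL1, EGR1 and KLF6 were highest in starved replicate 3 (3657961 counts, the most), as were 35.8% of all transcripts. JUNB ran from 69.9% to 127% of its starved mean and EGR1 from 75.0% to 124%. DUSP1 stayed between 97.5% and 102%, and JUND went the other way, from 109% in replicate 1 to 90.0% in replicate 3. Both rest on few footprints per starved library, 96 to 154 for DUSP1 and 54 to 70 for JUND. The part of counting noise in their values was not tested. The starved RNA libraries with the same numbers showed no such order, since no RNA library was lowest for more than 4 of the 8 genes. The part of library depth in this pattern was not tested.

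**Figure D5:**
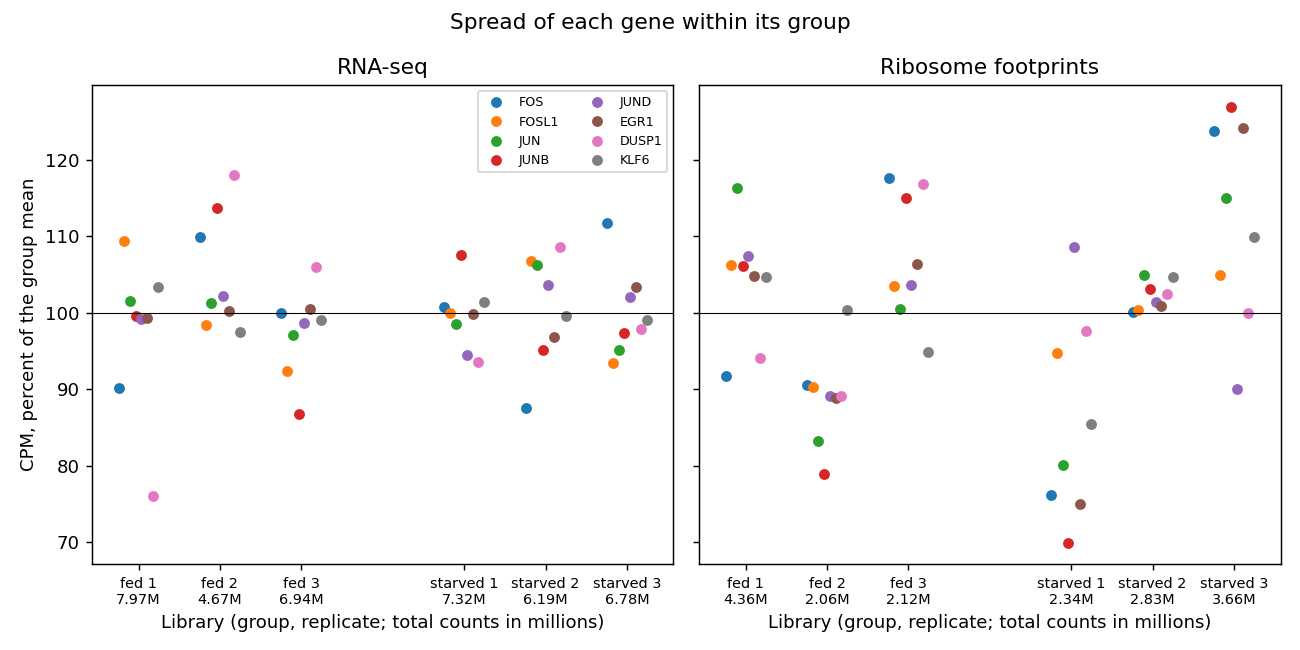
CPM of each gene as a percent of its group mean in every RNA (left) and footprint (right) library, with each library's total counts under its name. In footprints most genes sit low in fed replicate 2 and starved replicate 1 and high in starved replicate 3. JUND is reversed in the starved group, on 54 to 70 footprints per library.

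Leaving out fed footprint replicate 2 and starved footprint replicate 1 together, a setting added after this pattern was seen, JUN (0.76), EGR1 (0.82), DUSP1 (1.47) and KLF6 (2.34) were called higher (edgeR adjusted p between 9.94e-06 and 0.00124), with 2 libraries per group. JUNB (0.48, edgeR adjusted p = 0.0336) also passed. The 2 libraries were picked on the levels of these same genes, JUNB among them, so these values are a description and lend no support to a call. Of all 14212 transcripts tested, 13.8% were called higher in this setting. Without starved footprint replicate 3 alone, JUN, EGR1, DUSP1 and KLF6 also remained the 4 genes called.

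Total counts ranged from 4670881 to 7967215 per RNA library and from 2063952 to 4364383 per footprint library. The biological coefficient of variation of the fit was 5.75% for RNA and 13.7% for footprints. Fitted changes had a larger SE in footprints than in RNA for 7 of the 8 genes, the exception being DUSP1 (0.16 in both). No pair of replicates agreed within counting noise (chi-square per degree of freedom of 2.07 or more). Counts were not scaled by length, so the word scarce and the summed CPM describe counts and not numbers of transcripts. Reads from the opposite strand cannot be told apart where counting did not use strand. Other AP-1 and immediate early genes, and markers of epithelial cells, could not be paired with transcript identifiers and were not analysed here.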

How the data were processed

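The deposited tables hold raw counts, one row per Ensembl transcript and one column per library. The submitters' processing notes name the build GRCh38.p13 and the tools STAR, cutadapt, DESeq2 and UMI-tools. How reads were counted (tool, stretch of the transcript, strand) is not given in the sources used here. If whole transcripts were counted, footprints beyond the coding sequence are included. Groups came from the sample titles.

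RNA and footprint counts were fitted separately with edgeR 4.0.16 in R 4.3.3 (TMM factors, filterByExpr, quasi-likelihood test, two-sided, Benjamini-Hochberg over all transcripts). Efficiency was the interaction of assay and treatment over 12 libraries, with TMM factors within each assay. SE is the log2 fold change over the root of F. Scripts were tested on simulated counts. Of the 1.5-fold differences built into those counts, 82.1% were recovered for RNA, 20.9% for footprints and 16.4% for efficiency. At 2-fold, 92.5%, 76.1% and 82.1% were recovered, in the same order. Among the transcripts called there, 7.11% were false for RNA, 4.51% for footprints and 6.38% for efficiency. Far fewer transcripts were changed in the simulation than were called in the data. A common spread was used for all transcripts of an assay, and only footprints were changed for efficiency. These rates therefore check the scripts and do not give the power of the comparisons above. Alternatives used limma 3.58.1, DESeq2 1.42.0, other scalings, filters, blocks and left-out libraries. The genes named were all genes of the list with a row, called or not. Genes and lists were chosen with earlier results of these data known.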

Additional observations from a re-analysis of the deposited data

How the results depend on the processing

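Most values of the 8 genes kept their direction and their side of the threshold: 110 of 112 RNA values, 116 of 120 footprint values and 165 of 176 efficiency values over the alternatives run. In RNA, 7 genes were called under all alternatives except removal of the abundance trend (8) and leaving out starved replicate 3 (6). In footprints 4 were called, except 5 with that trend removed, without starved replicate 1, and with fed replicate 2 and starved replicate 1 both left out. In efficiency 1 gene, DUSP1, was called with the trend removed and 1, again DUSP1, with no filter on low counts; the cause was not tested.

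Efficiency values near 0 changed sign. JUN was 0.016 with library totals alone and 0.10 with the trend removed, FOSL1 was 0.090 with the trend removed, and EGR1 was −0.043 with no filter. With single libraries left out, JUN ran from −0.20 to 0.032 and EGR1 from −0.11 to 0.20 in efficiency, and FOS from −0.051 to 0.26 in footprints. The cause was not tested.

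The total number of transcripts called in each comparison stayed within 1.5 times the main count. The split of efficiency calls by direction moved more. Efficiency was called higher for 1227 and lower for 1292 transcripts, but for 1567 and 803 with library totals alone and for 1032 and 1705 with no filter.

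Whether replicate numbers pair the libraries could not be settled. Deviations of same-numbered fed and starved libraries from their group means correlated at −0.01 to 0.10 in RNA and −0.21 to −0.02 in footprints. Those of RNA and footprints correlated at −0.02 to 0.13. With 3 libraries per group, low correlations do not exclude shared cultures. With the replicate number as a block, 7956 transcripts were called in RNA, 4656 in footprints and 2133 in efficiency, and 7, 4 and 0 of the 8 genes. With RNA and footprint libraries as a pair, efficiency was called for 2494 transcripts and 0 of the 8 genes.

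Counts were lowest for FOS (40 to 77 in RNA and 21 to 56 in footprints per library) and DUSP1 (30 to 155 and 26 to 154). The part of depth in their errors was not tested.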
